A study of Mus musculus with 8 samples.

Results

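Mitochondrial ribosomal protein genes encode the protein part of the mitochondrial ribosome, the machine that translates the few mRNAs of mitochondrial DNA into subunits of the respiratory chain. The proteins are encoded in the nucleus, translated in the cytoplasm and imported, so their mRNAs are open to cytoplasmic control, including binding by Argonaute (Ago). Ago proteins carry microRNAs to complementary sites, mostly in 3′ UTRs, and form the core of the RNA-induced silencing complex. The genes described here were all those whose name on the array begins with Mrpl (large subunit) or Mrps (small subunit) followed by a digit. The rule reads names alone, although the group was picked for description with earlier results of these data known. There were 76 of them, 47 Mrpl and 29 Mrps, among 36163 gene names, and they were covered by 101 of 55681 probes.

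The RNA came from E14Tg2A mouse embryonic stem cells and from 3 later stages of their neuralization, with no genetic change or drug at any stage. ES cells (0 days in vitro, DIV) were grown on gelatin with serum and LIF. Epiblast-like aggregates (ELA, 2 DIV) were floating aggregates in serum-free defined medium, neural progenitors (NPC, 6 DIV) had grown for 4 more days attached to poly-ornithine and laminin, and the NPC/Neu culture (10 DIV), a mixture of progenitors and neurons, had spent a further 4 days without B27. At each stage total RNA and Ago-RNA, the RNA recovered with an antibody against all Ago proteins (clone 2A8), were hybridized to 1 array each, 8 arrays in all. Each array held RNA of 3 independent experiments pooled, from 1 cell line, so no condition has a replicate, and values are given below without a test. An immunoprecipitation with an unspecific antibody was not analysed here.

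Signal is given on a normalized log2 scale. Ago enrichment, E, is the log2 Ago-RNA signal minus the log2 total RNA signal of the same stage, and ΔE is its difference between consecutive stages. E of a gene is relative to the other RNAs on the arrays, so a negative E says that the transcript took a smaller share of Ago-RNA than of total RNA. With 1 array per condition, error can be read only within an array, from the spread between spots of a probe and, further on, between probes of a gene. Over 232 probes printed in 10 spots and well above background, the SD of E between spots was 0.07 to 0.09 at the 4 stages, and that of ΔE was 0.1 to 0.12. It covers printing and scanning, not differences between cultures. Between 53.4% and 61.2% of spots were well above background on the 8 arrays, and the upper quartile of spot intensity was 922.3 to 2536, the highest on the ES Ago-RNA array. The ES, ELA and NPC/Neu markers measured each had their highest total RNA signal at the stage of their label. Of the NPC markers Hes5 did. Sox1 (10.59 in NPC, 10.88 in NPC/Neu), Pax6 (9.31 and 9.81) and Nes (14.86 and 15.7) were higher in NPC/Neu. The ELA marker Otx2 varied little (15.53, 16.06, 15.91 and 15.97), and the ES marker Esrrb rose from 9.59 in NPC to 11.55 in NPC/Neu. The ES marker Zfp42 had total RNA signals of 15.97, 12.36, 8.71 and 9.76 from ES to NPC/Neu, the ELA marker Fgf5 11.96, 14.78, 7.48 and 7.89, and the neuronal marker Elavl3 10.26, 11.6, 11.21 and 14.33. Of 10 markers of other cell types, the endoderm genes Gata4, Gata6, Sox17 and Afp had signals of 6.26 to 8.08, and Afp was well above background on 0 arrays. The mesoderm genes T, Mesp1 and Hand1 ran from 6.09 (Mesp1, ELA) to 9.73 (T, NPC), and the glial genes Gfap, Aqp4 and Olig2 from 6.48 (Olig2, ES) to 9.31 (Olig2, NPC/Neu). T and Olig2 were higher at the later stages, and so was Sox17 (6.82 in ES, 8.08 in NPC, 7.16 in NPC/Neu). Aqp4 (7.31 in ES, 7.53 in NPC/Neu) and Gata6 (6.65 and 6.78) were slightly higher. The others of these lists were not higher in NPC or NPC/Neu than in ES, and the part of such cells in the results was not tested.

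Of the 76 genes, 75 had a probe well above background on all 8 arrays. Mrpl21 was the exception, with its only probe above background on none. It is left out below, except from counts and medians taken over probes. Total RNA of the 75 genes was well above that of a typical gene, with a median log2 signal that was 14.2 in ES, 13.68 in NPC and 13.39 in NPC/Neu, against 8.75 or 8.76 over all 28270 genes detected. Their Ago-RNA signals had medians of 13.21, 13.86, 13.49 and 12.9. A binding threshold of 7.82 was computed from the dimmer probes of the Ago-RNA arrays. All detected probes of 73 genes lay above it in ES and ELA, and those of 72 genes at both later stages. Of all 55681 probes of the array, 24462 (ES), 24518 (ELA), 24458 (NPC) and 24411 (NPC/Neu) did. Members of the group were thus measured in Ago-RNA at every stage, and it is the size of E that differed from that of a typical gene. Cytosolic ribosomal protein and oxidative phosphorylation genes, given further on, shared this.

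In ES cells the mRNAs of mitochondrial ribosomal proteins were poor in Ago-RNA. The median E of the 75 genes was -0.92, with quartiles of -1.21 and -0.46, while the median of all 25320 genes detected in ES was 0.04. E was negative for 70 of the 75. In ELA the median was -0.27, in NPC -0.43, and in NPC/Neu -0.78, against -0.03, 0.01 and 0.03 for all detected genes. The group thus stood lowest in ES and in NPC/Neu and nearest to other genes in ELA. With scaling to the 75th percentile NPC was nearest, at -0.17 from the median of all genes, with -0.2 in ELA. The sign in the 2 middle stages depends on the normalization: when the 4 Ago-RNA arrays were normalized apart from the 4 total RNA arrays, the medians were 0.09 in ELA and 0.02 in NPC, while they stayed negative in ES (-0.52) and NPC/Neu (-0.38).

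**Figure D1:**
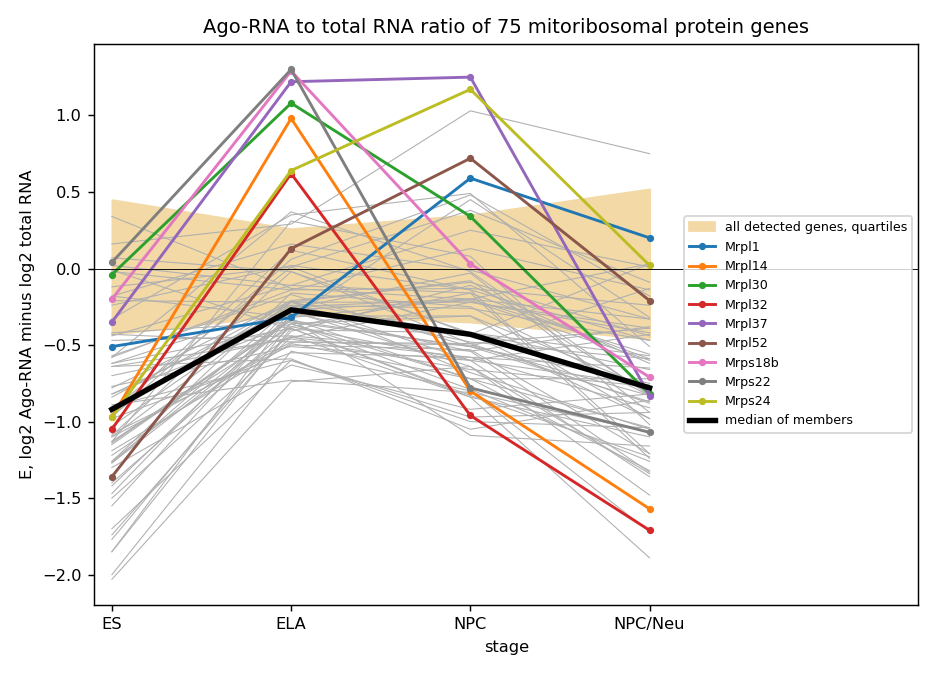
E (vertical axis, log2 Ago-RNA minus log2 total RNA) of the 75 detected genes at the 4 stages, 1 array each for Ago-RNA and total RNA; grey and coloured lines are single genes, the black line their median and the band the quartiles of all detected genes. The median lies at -0.92, -0.27, -0.43 and -0.78, with the signs in ELA and NPC turned by separate normalization, and the 9 coloured genes are those with E beyond 0.5 in opposite directions at 2 stages.

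Counted at a 2-fold difference (E of 1 or more, or -1 or less), 31 of the 75 genes (41.3%) were at or below -1 in ES, where 10.5% of all detected genes were, and 0 were at or above 1, where 9.36% of all genes were. In NPC/Neu, 22 (29.3%) were at or below -1 against 11.6% of all genes, and 0 at or above 1 against 10.9%. In ELA the count at or below -1 was 0 (3.38% of all genes), and 4 genes (5.33%) were at or above 1, near the 3.84% of all genes. In NPC, 2 genes (2.67%) were at or below -1 against 5.81% of all genes, and 3 (4%) were at or above 1 against 5.34%. The low counts at both ends in ELA and NPC were thus close to those of other genes, and the stages with the excess were ES and NPC/Neu. In ES it was kept with separate normalization (12 genes, 16%, against 7.49% of all genes) and with scaling to the 75th percentile (56% against 26.2%). In NPC/Neu it was lost under both, with 5 genes (6.67%) against 8.67% of all genes, and 14 genes (18.7%) against 22.8%.

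E was lowest in ES for 39 of the 75 genes, in NPC/Neu for 29, in NPC for 6 and in ELA for 1. It was highest in ELA for 44, in NPC for 23, in ES for 5 and in NPC/Neu for 3. These counts were not made over all genes, whose E was also spread wider in ES and NPC/Neu. At or below -1 were 10.5% and 11.6% of all genes there, against 3.38% in ELA and 5.81% in NPC. Across the 75 genes Spearman's rho of E in ES was 0.55 with E in NPC/Neu, 0.43 with E in ELA and 0.4 with E in NPC, and that of E in ELA and in NPC was 0.61. Genes are not independent replicates, the points share arrays and normalization, and these values are descriptions.

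Because E is read from probes, a few probe sequences are shown here as examples, all of them wholly within coding sequence of their transcript. The first 4 belong to genes with positive E in ELA (0.62 in Mrpl32 to 1.29 in Mrps18b) and the last 3 are probes with E of -1.5 to -1.37 in ES, from genes within the group at or below -1. They are written 5′ to 3′ as designed for the array, with mm9 positions, and capitals mark the bases that lie beyond an exon junction, so that such a probe reads spliced RNA.
Mrps18b, chr17:36051313-36051461: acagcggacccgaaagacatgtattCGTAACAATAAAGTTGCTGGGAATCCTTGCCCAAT
Mrpl37, chr4:106733238-106734539: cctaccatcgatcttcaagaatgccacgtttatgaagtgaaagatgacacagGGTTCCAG
Mrpl30, chr1:37954938-37954997: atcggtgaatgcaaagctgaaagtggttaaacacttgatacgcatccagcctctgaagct
Mrpl32, chr13:14702894-14702953: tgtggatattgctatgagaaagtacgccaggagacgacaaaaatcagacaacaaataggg
Mrpl47, chr3:32629104-32630111: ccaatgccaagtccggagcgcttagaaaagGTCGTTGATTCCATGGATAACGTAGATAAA
Mrpl47, chr3:32633037-32633096: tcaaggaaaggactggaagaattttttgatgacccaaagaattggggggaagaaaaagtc
Mrpl50, chr4:49527089-49527148: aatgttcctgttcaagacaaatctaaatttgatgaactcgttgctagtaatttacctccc
The probes with a junction were no different in direction. Over the 14 probes that cross an exon junction the median E from ES to NPC/Neu was -0.63, -0.36, -0.37 and -0.84, and over the 81 within 1 exon it was -0.94, -0.29, -0.39 and -0.66. Probes within coding sequence (28) had medians of -0.68, -0.33, -0.44 and -0.88, and probes within the 3′ UTR (53) had medians of -0.98, -0.29, -0.31 and -0.63. The low E in ES and NPC/Neu was thus read from both parts of the transcripts.

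The gene with the lowest E in ES was Mrpl54, a large subunit protein with no bacterial counterpart, on chromosome 10 (mm9, 80727458 to 80729679). Its total RNA signal was 14.28, 14.55, 14.8 and 14.57 from ES to NPC/Neu, and its Ago-RNA signal was 12.25, 13.81, 14.17 and 13.23. Total RNA was at its lowest in ES, and so was Ago-RNA, by a wider margin, and E was -2.03, -0.74, -0.64 and -1.34. Mrps33, a small subunit protein found only in mitochondrial ribosomes, had E of -2.0, -0.54, -0.8 and -1.72, and its 2 probes gave -2.05 and -1.95 in ES. Mrpl42 had E of -1.85, -0.39, -0.84 and -1.89, the lowest value in NPC/Neu. Mrps21, the counterpart of the bacterial small subunit protein S21, had -1.85, -0.29, -0.54 and -1.33. Mrps18c, Mrpl36 and Mrpl55 followed with -1.77, -1.74 and -1.7 in ES. All of these are short transcripts, of 488 (Mrps21) to 1107 (Mrps33) bases in the annotation.

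**Figure D2:**
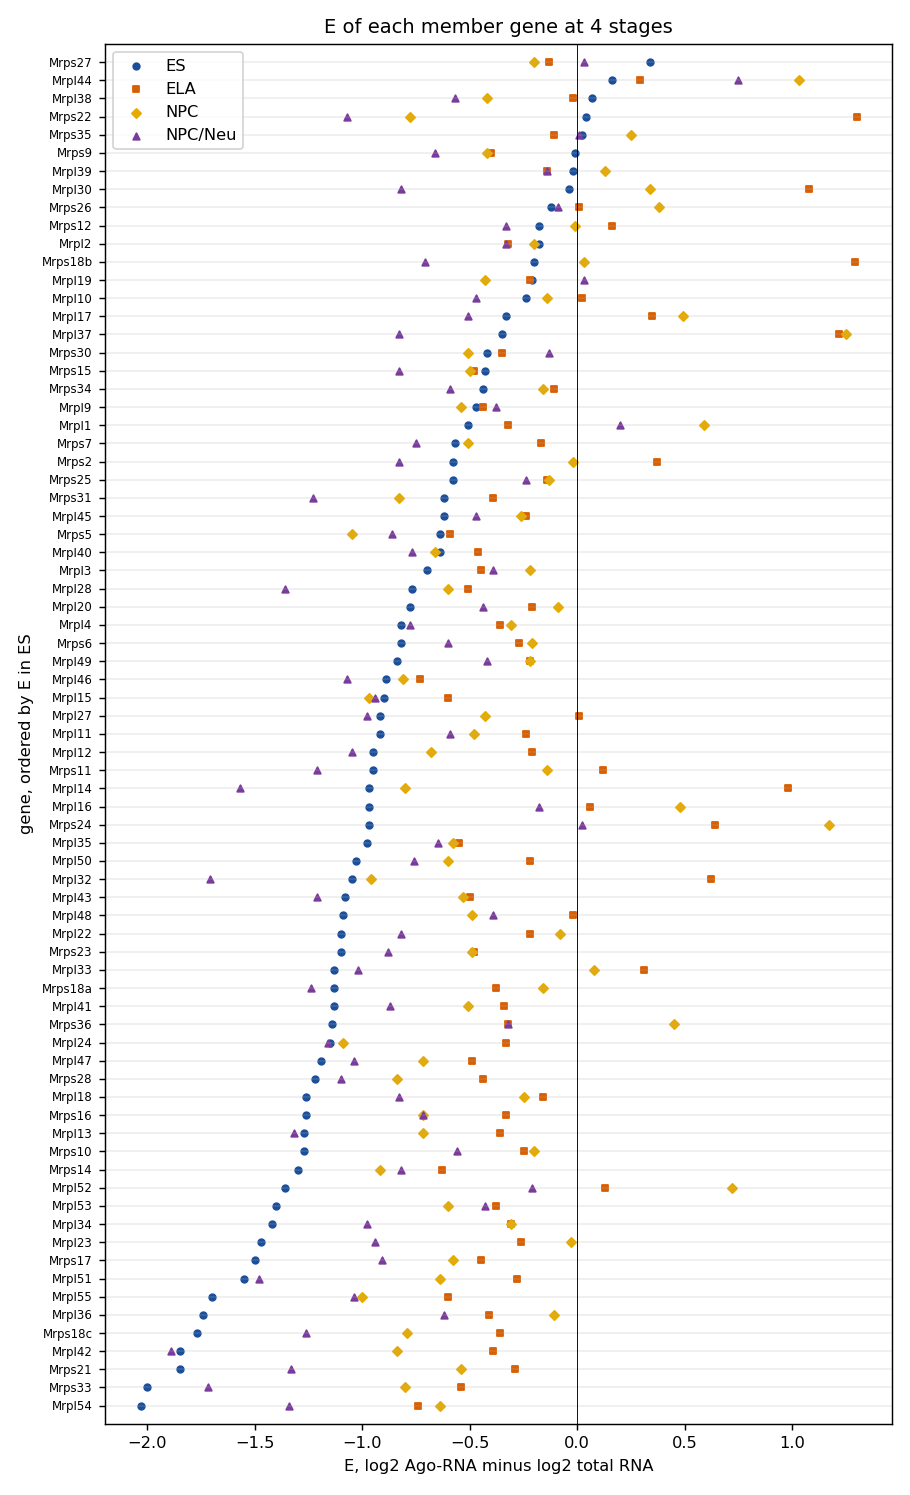
E (horizontal axis, log2 Ago-RNA minus log2 total RNA) of each of the 75 genes at the 4 stages, 1 symbol per stage, with genes ordered by E in ES. In ES the values run from -2.03 (Mrpl54) to 0.34 (Mrps27), and E is highest in ELA for 44 genes and in NPC for 23.

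At the other end in ES were Mrps27 (E of 0.34), Mrpl44 (0.16) and Mrpl38 (0.07). Mrpl44, a member of the ribonuclease III family near the exit of the polypeptide tunnel, was the gene with the highest E in NPC/Neu. Its total RNA signal was 13.05, 13.06, 12.57 and 12.27, its Ago-RNA signal 13.21, 13.34, 13.6 and 13.02, and its E 0.16, 0.29, 1.03 and 0.75. It was positive at every stage. Mrps35, whose probe was printed in 10 spots, stayed close to 0, with E of 0.02, -0.11, 0.25 and 0.01 and an SD between spots of 0.04 at each stage. Mrpl34, read by another probe in 10 spots, had -1.42, -0.31, -0.31 and -0.98 with SDs of 0.07, 0.07, 0.09 and 0.05. The distance between these 2 genes in ES was far larger than the spread between spots of a probe.

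From ES to ELA the median ΔE of the 75 genes was 0.74, against -0.02 for all 26132 genes detected, and ΔE was positive for 67. It was at or above 1 in 26 genes (34.7%) and in 7.08% of all genes. No gene of the group was at or below -1, where 6.1% of all genes were. The term that differed was Ago-RNA, with a median change of 0.56, since the median change of total RNA was -0.14. The largest ΔE values were those of Mrpl14 (1.95), Mrpl32 (1.67) and Mrps24 (1.61), and the lowest those of Mrps27 (-0.47), Mrps9 (-0.38) and Mrpl2 (-0.14). Others at or above 1 were Mrpl37 (1.57), Mrps21 (1.56), Mrpl52 (1.49), Mrps18b (1.49), Mrps33 (1.46) and Mrpl42 (1.45). ΔE was 1 or more also in Mrpl16, Mrpl18, Mrpl23, Mrpl30, Mrpl33, Mrpl34, Mrpl36, Mrpl48, Mrpl51, Mrpl53, Mrpl54, Mrpl55, Mrps10, Mrps11, Mrps17, Mrps18c and Mrps22. E in ES and ΔE to ELA share the ES arrays, so the low values of the first enter the second.

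From ELA to NPC the median ΔE was -0.13, with 0.02 for all genes, and it was -0.01 with scaling to the 75th percentile. It was at or below -1 in 4 genes (5.33%, with 3.42% of all genes), namely Mrps22 (-2.09), Mrpl14 (-1.78), Mrpl32 (-1.59) and Mrps18b (-1.26), and at or above 1 in 0 genes (2.63% of all genes). Mrpl1 (0.91), Mrps36 (0.77) and Mrpl44 (0.74) had the highest values. From NPC to NPC/Neu the median was -0.37, with 0.02 for all genes, and 66 of 75 genes had a negative ΔE. It was at or below -1 in 8 genes of 75, with 4.23% of all genes, and at or above 1 in 0 (2.4% of all genes). These 8 were Mrpl37 (-2.07), Mrpl30 (-1.16), Mrps24 (-1.15), Mrpl33 (-1.1), Mrps18a (-1.08), Mrps11 (-1.07), Mrpl42 (-1.05) and Mrpl17 (-1.0). With scaling to the 75th percentile 1 of the 8, Mrpl37, was at or below -1, 1.33% of the group against 11% of all genes, and several of the others lay just inside the limit. The highest values of this step were those of Mrpl19 (0.46), Mrps30 (0.38) and Mrps27 (0.23). A probe can be classed as released by Ago, or in the other direction as loaded, when Ago-RNA is above the binding threshold, E is at least 2 at 1 stage and at most 0.5 at the next, and E differs by 1.5 or more. Of the 101 probes, 0 met either at any of the 3 transitions. Over the whole array only 16 to 106 of 55681 probes did in each class, so 0 of 101 does not set the group apart.

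A small set of genes departed from the group in ELA or NPC. Mrps22, a small subunit protein mutated in human mitochondrial disease, had total RNA signals of 13.53, 13.27, 13.48 and 13.08 and Ago-RNA signals of 13.57, 14.57, 12.7 and 12.01. Its total RNA varied by less than 0.5, and Ago-RNA was highest in ELA, so that E was 0.04, 1.3, -0.78 and -1.07. Its probe matched no annotated coding transcript here. Mrps18b, a small subunit protein of the S18 family that is counted here as specific to mitochondria, had E of -0.2, 1.29, 0.03 and -0.71. Its 2 probes had 1.44 and 1.15 in ELA, the first being the junction probe printed above, and the second having 2 exact copies in the genome. Mrpl30, with 2 probes at 1.08 and 1.07 in ELA, the first of which matched no annotated coding transcript, had E of -0.04, 1.08, 0.34 and -0.82. Mrpl37, found only in mitochondrial ribosomes, stayed high for 2 stages, with total RNA signals of 12.38, 12.37, 11.83 and 11.45, Ago-RNA signals of 12.03, 13.59, 13.08 and 10.63, and E of -0.35, 1.22, 1.25 and -0.83. Mrps24, at the mRNA channel of the small subunit, had -0.97, 0.64, 1.17 and 0.02. Mrpl14, the counterpart of the bacterial protein L14 at the subunit interface, had -0.97, 0.98, -0.8 and -1.57, and Mrpl32 had -1.05, 0.62, -0.96 and -1.71. In these last 2 genes ELA alone stood apart from the other stages. The 4 genes at or above 1 in ELA were Mrps22, Mrps18b, Mrpl37 and Mrpl30, and the 3 in NPC were Mrpl37, Mrps24 and Mrpl44. At the low end in NPC, Mrpl24 and Mrps5 were at or below -1 (-1.09 and -1.05), followed by Mrpl55 (-1.0), and the lowest in ELA were Mrpl54 (-0.74), Mrpl46 (-0.73) and Mrps14 (-0.63).

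**Figure D3:**
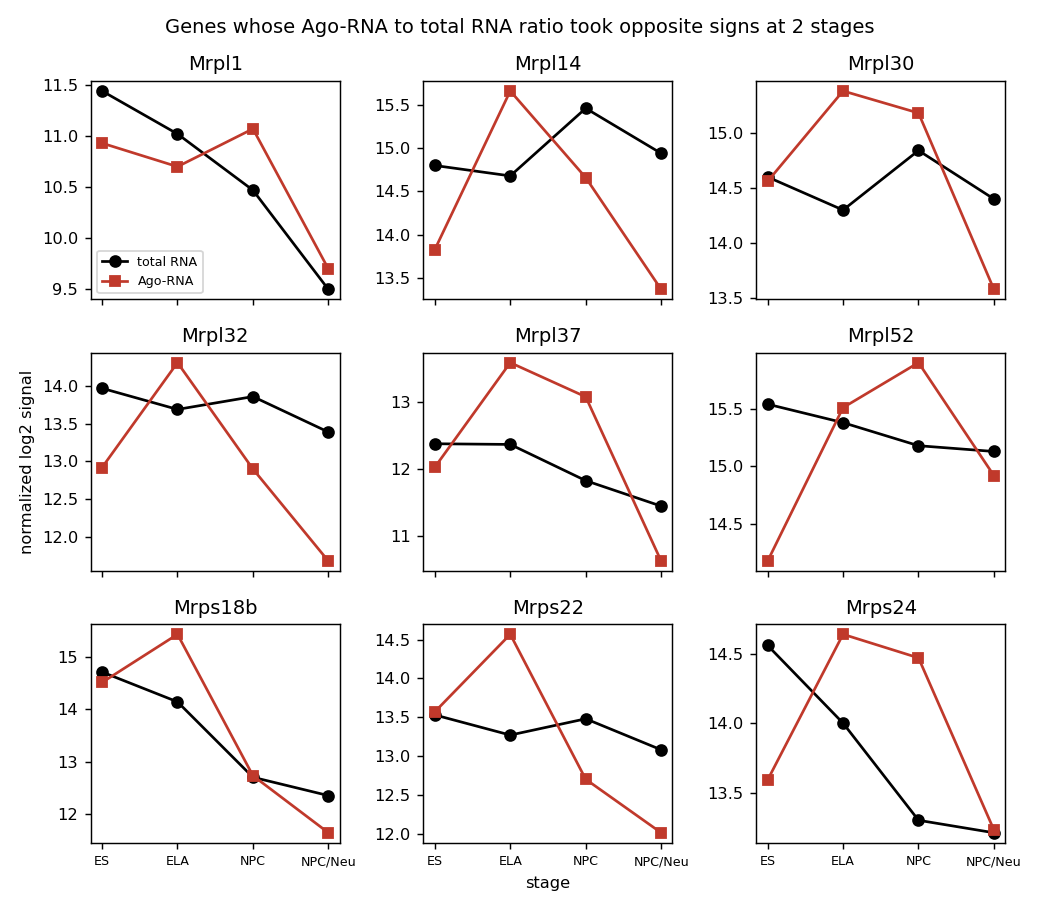
Normalized log2 signal (vertical axis, a range of its own in each panel) of total RNA (black) and Ago-RNA (red) at the 4 stages for the 9 genes whose E was beyond 0.5 in opposite directions at 2 stages, 1 array per point. Ago-RNA peaks in ELA or NPC in every panel, above the total RNA line, and in Mrps22 it runs from 13.57 to 14.57 and then to 12.7 while total RNA stays between 13.08 and 13.53.

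Total RNA of the group was lower at each later stage. The median change was -0.14 from ES to ELA, -0.28 from ELA to NPC and -0.33 from NPC to NPC/Neu, where the medians of all genes were between -0.03 and 0. In cultures of mixed cells, fewer cells of a type and less RNA per cell cannot be told apart. Counted at 0.5, from ES to ELA 7 genes (9.33%) were at or below -0.5 with 13.1% of all genes, and 1 (1.33%) was at or above 0.5 with 13.7%. From ELA to NPC, 18 (24%) were at or below -0.5 with 20.9% of all genes, and 6 (8%) at or above 0.5 with 21.9%. From NPC to NPC/Neu, 19 (25.3%) were at or below -0.5 with 15.7% of all genes, and 0 at or above 0.5 with 14.3%. The group thus differed from other genes by the small number of increases at each step, and in the last step also by decreases. At a limit of -1, there were 2 genes (2.67%) from ELA to NPC, where 9.61% of all genes were, and 0 from NPC to NPC/Neu, where 3.96% were. The steps add up: from ES to NPC/Neu the median change was -0.67, with -0.05 over all 25646 genes detected. Of the 75 genes 65 were lower, with 13540 of all genes, and 23 (30.7%) were lower by 1 or more, with 16% of all genes. In 37 genes (49.3%) the signal was lower at each of the 3 steps, with 15.3% of all genes.

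**Figure D4:**
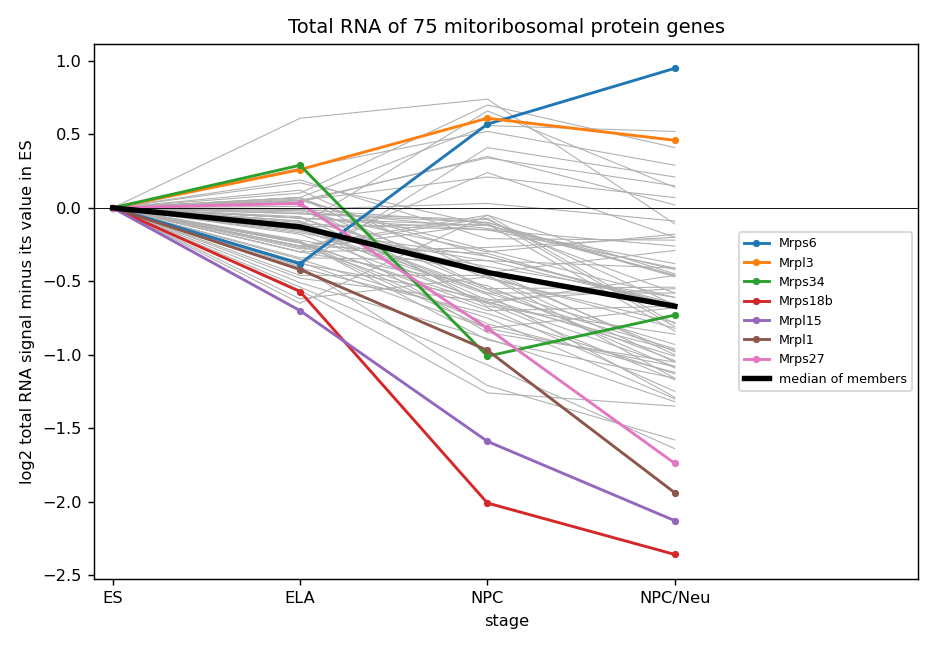
Log2 total RNA signal of the 75 genes minus its value in ES (vertical axis) at the 4 stages, 1 array per stage; grey and coloured lines are single genes and the black line is their median. The median reaches -0.67 in NPC/Neu, with Mrps18b lowest at -2.36 and Mrps6 highest at 0.95.

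The largest decrease was that of Mrps18b, with total RNA signals of 14.71, 14.14, 12.7 and 12.35 (-1.44 from ELA to NPC). The other genes with E at or above 1 in ELA had total RNA changes of 0.21 (Mrps22), 0.53 (Mrpl30) and -0.54 (Mrpl37) in that step. Mrps34, a small subunit protein mutated in human disease, had 14.62, 14.91, 13.61 and 13.89, with -1.3 from ELA to NPC. Mrpl15 had 14.39, 13.69, 12.8 and 12.26 and was among the 3 lowest at both of the first steps (-0.71 and -0.88). Mrpl1 had 11.44, 11.02, 10.47 and 9.5, and Mrps27 had 12.12, 12.15, 11.3 and 10.38, with the lowest changes of the last step (-0.97 and -0.92, and -0.85 in Mrpl23). From ES to ELA the lowest after Mrpl15 were Mrpl36 (-0.65) and Mrps17 (-0.63), and the highest were Mrpl23 (0.61), Mrps34 (0.29) and Mrpl54 (0.27). In the opposite direction, Mrps6 had 14.13, 13.75, 14.7 and 15.08 and ended 0.95 above ES. Its larger increase came in the step from ELA to NPC (0.95), where Mrps33 (0.79) and Mrpl14 (0.78) were next, and it rose again in the last step. In the last step Mrps6 (0.38), Mrps34 (0.28) and Mrpl20 (0.2) were highest.

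The parts of the ribosome were compared with fixed lists of members. The 46 detected genes named Mrpl had a median E of -0.96, -0.25, -0.43 and -0.8 from ES to NPC/Neu. The 29 genes named Mrps had -0.64, -0.29, -0.42 and -0.75, and they include 3 that are placed outside the small subunit (Mrps18a, Mrps30 and Mrps36). The medians by name lay apart in ES and close together at the later stages, and in ES they were -0.96 and -0.82 when the brightest probe of a gene was taken. Within the small subunit, the 16 genes with a bacterial counterpart had a median of -0.96 in ES, and the 10 counted as specific to mitochondria, Mrps18b among them, -0.32, with Mrps33 at -2.0. In the large subunit the corresponding medians were -0.93 (28 genes) and -1.05 (18 genes).

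By role in the large subunit, the stalk proteins that recruit translation factors, Mrpl10, Mrpl11 and Mrpl12, had E of -0.24, -0.92 and -0.95 in ES and 0.02, -0.24 and -0.21 in ELA. Around the peptidyl transferase centre, where peptide bonds form, Mrpl2 (-0.18), Mrpl3 (-0.7), Mrpl4 (-0.82), Mrpl16 (-0.97) and Mrpl27 (-0.92) had a median of -0.82 in ES and -0.32 in ELA. Mrpl3 and Mrpl27 had more total RNA in NPC than in ES (14.65, 14.91, 15.26 and 15.11 for Mrpl3 over the 4 stages). At the exit of the tunnel through which the new chain leaves, Mrpl22 (-1.1), Mrpl23 (-1.47), Mrpl24 (-1.15), Mrpl39 (-0.02), Mrpl44 (0.16) and Mrpl45 (-0.62) had a median of -0.86 in ES and -0.23 in ELA. In the central protuberance, at the top of the subunit, Mrpl18 (-1.26), Mrpl38 (0.07), Mrpl40 (-0.64), Mrpl46 (-0.89), Mrpl48 (-1.09), Mrpl52 (-1.36) and Mrps30 (-0.42), which is placed in the large subunit despite its name, had a median of -0.89. Of these, Mrpl52 had E of 0.72 in NPC, while Mrpl18, Mrpl40, Mrpl46, Mrpl48 (-0.02 in ELA) and Mrps30 were negative at every stage.

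In the small subunit, Mrps12, the counterpart of the decoding centre protein S12, had E of -0.18, 0.16, -0.01 and -0.33, and its total RNA was 15.1, 14.59, 14.21 and 13.78, lower at each step. Along the mRNA channel and in the head of the subunit, Mrps5 (-0.64), Mrps7 (-0.57), Mrps9 (-0.01), Mrps10 (-1.27), Mrps14 (-1.3), Mrps24 (-0.97) and Mrps35 (0.02) had a median of -0.64 in ES and -0.25 in ELA. Mrps9 (-0.4) and Mrps35 (-0.11) had a lower E in ELA than in ES. Of 14 members mutated in human mitochondrial disease, 5 were at or below -1 in ES (Mrpl24, Mrps14, Mrps16, Mrps23 and Mrps28). That share was no higher than the 41.3% of the whole group, with 10.5% of all detected genes, and the median of the 14 was -0.64. Mrps36, which later work places in the 2-oxoglutarate dehydrogenase complex and not in the ribosome, had E of -1.14, -0.32, 0.45 and -0.32, and 1 of its probes has 3 exact copies in the genome.

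Mitochondrial ribosomal protein mRNAs are short, and E in ES went with transcript length over the whole array. The 73 detected genes with an annotated length had a median of 1213 bases, against 2944 over 12655 genes, a median coding length of 567 against 1332 bases and a median 3′ UTR of 316 against 990 bases. Across the 12655 genes Spearman's rho of E in ES and length was 0.61 (Pearson's r 0.6), and across the 73 genes it was 0.44 (0.39). In ELA, NPC and NPC/Neu rho within the group was -0.05, -0.02 and 0.33, and over all genes it was 0.38, 0.37 and 0.5. These are descriptions across genes that share arrays. Among transcripts of 243 to 1845 bases, the shortest of 4 classes of equal size, all genes had a median E of -0.41 in ES with quartiles of -0.91 and -0.02, and the 53 members -0.97. Among those of 2945 to 4384 bases, all genes had a median of 0.35 and the 8 members -0.94. The members thus lay below other genes in both length classes.

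**Figure D5:**
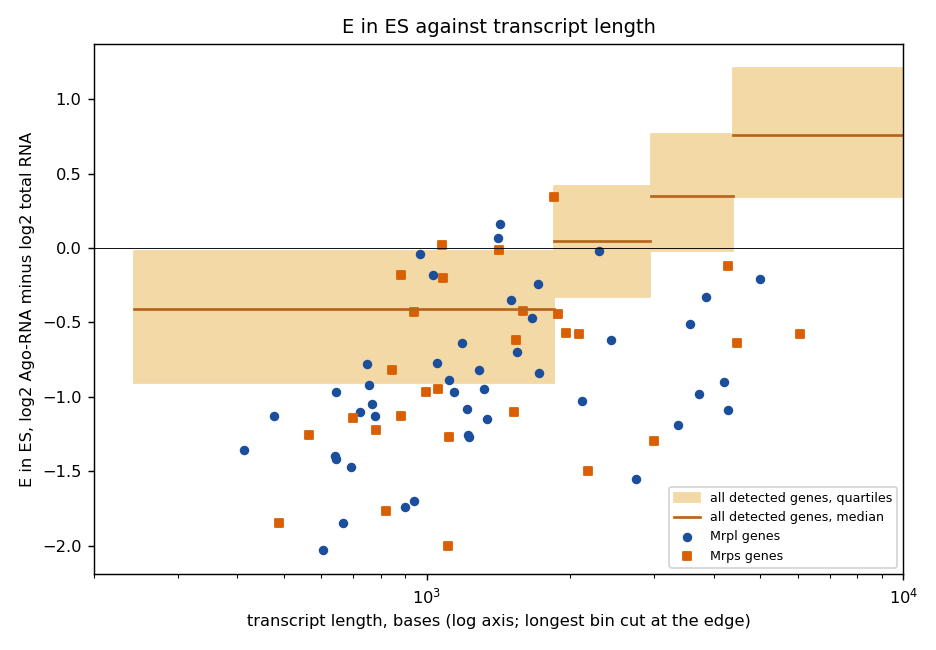
E in ES (vertical axis, log2 Ago-RNA minus log2 total RNA) against annotated transcript length (log axis, bases) for 73 of the genes, with the median and quartiles of all detected genes in 4 length classes of equal size. The 53 members in the shortest class have a median of -0.97 against -0.41 for all genes, and the 8 members in the third class -0.94 against 0.35.

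Members were also set beside short transcripts of like signal. Among other genes of the shortest class with a log2 total RNA signal of 14 to 16, the median E in ES was -0.66 (510 genes, quartiles -1.18 and -0.1), and that of the 33 members in the same class was -1.1. At signals of 12 to 14 the medians were -0.69 for 734 other genes and -0.81 for 16 members. In ELA the medians in the brighter class were -0.2 for other genes and -0.32 for members, and in NPC -0.31 and -0.43. In NPC/Neu they were -0.6 and -0.98. In this class members lay below other short transcripts at each stage, but at signals of 12 to 14 in ELA they did not, with -0.27 against -0.31. With separate normalization the brighter class gave -0.68 for members and -0.3 for other genes in ES, and 0.08 and 0.15 in ELA. The part of length and brightness in the group's low E was not tested further.

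Other gene groups on the same arrays show where the group stands. Cytosolic ribosomal protein genes (97 detected in ES) had a median E of -0.79, -0.17, -0.28 and -0.58 from ES to NPC/Neu, and oxidative phosphorylation subunit genes (83 detected in ES) -1.04, -0.21, -0.35 and -0.74. Both followed the course of the mitochondrial ribosomal proteins. Mitochondrial aminoacyl-tRNA synthetases, which charge the tRNAs used on the same ribosome, had 0.25, -0.05, -0.08 and 0.35, positive in 14 of 16 genes in ES, with Iars2 highest (1.32) and Tars2 lowest (-0.24). Mitochondrial translation and ribosome assembly factors (32 genes) had -0.12, -0.21, -0.15 and -0.02, from -1.19 in Mtg1, a GTPase of large subunit assembly, to 1.91 in Lrpprc, which stabilizes mitochondrial mRNAs. As groups, the proteins of the ribosome were low in ES and the enzymes and factors that work with it were not. The synthetases and factors were also dimmer, with median total RNA signals in ES of 11.81 and 11.66 against 14.2. They were not compared with members at like length or signal, so the part of these in the contrast was not tested. Among 7 ribosomal proteins of mitochondria that carry other names, E in ES ran from -1.88 (Chchd1) and -1.61 (Aurkaip1) to 1.66 (Ptcd3), with a median of -0.57. No test of these differences was possible with 1 array per condition. In total RNA the course of the group was not that of all these lists. From ES to ELA, ELA to NPC and NPC to NPC/Neu the median changes were -0.02, -0.08 and -0.14 in cytosolic ribosomal protein genes and -0.09, 0.02 and -0.03 in oxidative phosphorylation genes, against -0.14, -0.28 and -0.33 here, while the synthetases had -0.04, -0.38 and -0.45.

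Target sites of microRNAs known from these stages were counted in the 3′ UTRs of the 73 annotated members. The mature sequences, from RefSeq (GRCm38.p6), are shown with the seed, bases 2 to 8, in capitals. The first pair shares a seed and is typical of pluripotent cells, let-7 rises in differentiated cells, and miR-9 belongs to neural cells.
mmu-miR-294-3p: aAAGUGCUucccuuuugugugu
mmu-miR-302b-3p: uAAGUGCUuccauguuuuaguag
mmu-let-7a-5p: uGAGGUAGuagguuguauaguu
mmu-miR-9-5p: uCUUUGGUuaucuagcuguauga
A match to the seed of miR-294 and miR-302b (AGCACTT in the mRNA) was present in 8 of 73 members (11%) and in 15.3% of all 12655 3′ UTRs. Per kilobase of 3′ UTR the members held 0.143 sites and all genes 0.13, so the smaller share goes with their shorter 3′ UTRs. For let-7 (CTACCTC) the shares were 5.48% and 9.36%, with 0.0635 and 0.0756 sites per kilobase. For miR-9 (ACCAAAG) they were 5.48% and 12.4%, with 0.0635 and 0.101. Among all genes, those with a miR-294 site had a median E of 0.36 in ES and those without 0.14. Among members the medians in ES were -0.61 for the 8 with a site and -0.95 for those without. They were -0.25 and -0.29 in ELA, -0.53 and -0.31 in NPC, and -0.57 and -0.82 in NPC/Neu. The 8 had 3′ UTRs of 836 to 5497 bases, so that site and length go together here.

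The 8 members with a miR-294 site were Mrpl9, Mrpl19, Mrpl47, Mrpl48, Mrpl51, Mrps5, Mrps7 and Mrps25, of which Mrpl19 had 2 sites. Some of the sites are printed with 8 bases on each side, the site in capitals. Sites of other ES microRNAs were not searched for.
Mrpl19, base 692 after the stop codon: tagttcagAGCACTTgctactct
Mrpl47, base 346: agtttaagAGCACTTgttgctct
Mrpl48, base 708: gtacgttcAGCACTTaggaggtg
Mrps7, base 624: agtggcagAGCACTTgcctagca
Their E in ES was -0.21, -1.19, -1.09 and -0.57. None of these 4 was positive, and a match is a description of the sequence only. The miR-9 match of Mrpl54, the gene with the lowest E in ES, lies 126 bases into a 3′ UTR of 152.

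Some genes had probes that disagreed. Probes of a gene differed by over 1 in E at a stage in 4 genes. For Mrps25, a small subunit protein with an annotated 3′ UTR of 5497 bases, the probe 5315 bases from the transcript's end had E of -1.48, -0.4, -0.28 and -0.83, with a total RNA signal of 14.93 in ES. The probe 11 bases from the end had 0.32, 0.12, 0.01 and 0.36, with a signal of 9.29. The dim distal probe had the higher E at every stage. For Mrpl39 the probe at the stop codon, 726 bases from the end, had -0.65 in ES and that 154 bases from the end 0.62, with signals of 14.17 and 7.83. For Mrpl47 the 2 coding probes printed above had -1.17 and -1.64 in NPC/Neu and the 3′ UTR probe -0.33, again the dimmest at 7.82. For Mrpl22 the junction probe had -1.42 in NPC/Neu and the 3′ UTR probe -0.22. The junction probe has 1 exact copy in the genome although it crosses a junction, and the 3′ UTR probe has 2. The mean E of these 4 genes therefore mixes unlike values. Over the 24 genes with more than 1 probe the SD between probes of a gene was 0.43, 0.18, 0.26 and 0.42 at the 4 stages, larger than that between spots.

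Since the genes were lower together in total RNA, their promoters were searched for motifs of 3 factors known to drive nuclear genes for mitochondria, NRF1, the ETS factor GABPA and YY1. RefSeq promoters (GRCm38.p6, 250 bases before to 50 after the start) were given for 66 of the members, 72 promoters in all. The NRF1 core (GCGCATGC on either strand) was in 8 of the 72 (11.1%) and in 2.71% of all 32851 promoters. The ETS motif (CCGGAAGT, either strand) was in 12 (16.7%) against 3.89%, and the YY1 motif (AAGATGGC, either strand) in 12 (16.7%) against 2.75%. Any of the 3 was in 29 (40.3%) against 8.83%. The 32851 promoters include those of genes not detected here. Counted by gene, 29 members had any of the 3 and 37 had none, against 1827 and 10553 of the detected genes, a smaller excess. Median GC content was 58.2% in the member promoters and 52.7% in all promoters. Stretches upstream of the start are shown for a few members as examples of each motif, in the direction of the gene and with the motif in capitals.
Mrpl10, NRF1, chr11:97041433-97041470: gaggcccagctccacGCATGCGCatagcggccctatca
Mrpl39, NRF1 on both strands, chr16:84735345-84735384: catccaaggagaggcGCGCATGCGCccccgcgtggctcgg
Mrpl27, ETS, chr11:94653721-94653758: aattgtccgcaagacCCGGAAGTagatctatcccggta
Mrpl51, ETS, chr6:125192095-125192132: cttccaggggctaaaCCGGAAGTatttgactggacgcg
Mrpl36, YY1, chr13:73330964-73331001: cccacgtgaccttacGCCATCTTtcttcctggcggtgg
From ES to NPC/Neu the median change of total RNA was -1.0 in the 12 members with a YY1 motif and -0.63 in the 54 without. It was -0.84 and -0.65 with and without the NRF1 core, and -0.35 and -0.73 with and without the ETS motif. Over all detected genes the medians with and without were -0.09 and -0.02 (YY1), -0.1 and -0.02 (NRF1 core), and -0.15 and -0.02 (ETS). The ETS split thus ran the other way there. The factors themselves had total RNA signals of 10.47, 10.61, 10.41 and 10.27 (Nrf1), 11.69, 11.34, 11.01 and 10.63 (Gabpa) and 12.7, 12.86, 12.35 and 12.21 (Yy1) from ES to NPC/Neu. Of the 7 other regulators listed, Myc (11.71 to 8.92), Mycn (15.48 to 12.96), Pprc1 (11.59 to 9.81), Gabpb1 (11.36 to 11.03) and Ppargc1b (7.41 to 6.83) were lower in NPC/Neu than in ES, and Esrra (12.63 to 13.54) and Ppargc1a (6.34 to 7.07) were higher. Ppargc1a was well above background on only 2 of the 8 arrays. Any relation to the group was not tested.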

How the data were processed

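Total RNA and Ago-RNA of 4 stages were measured on Agilent 1-color mouse arrays of 60-base probes (8 arrays, 62976 spots each, mm9 annotation). The authors deposited spot intensity as written by Feature Extraction (10.7.3.1 in the file headers, 9.1 in the submitters' processing notes), not normalized between arrays: mean and local background intensity and a processed intensity. Per the labels, RNA of 3 experiments was pooled on each array, so the number of arrays limits precision and no p-value is given. Members and gene lists were chosen with earlier results of these data known.

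Mean intensity was corrected with normexp (offset 50) in limma 3.58.1 (R 4.3.3). Irregular spots (270 to 798 per array) were left out, log2 values quantile normalized over the 8 arrays, as in the study's methods, spots averaged per probe and probes per gene. A gene counted as detected with a probe well above background on any array compared. For the binding threshold, a mixture of 2 Gaussians was fitted to Ago-RNA signals (mclust 6.1.1), and 3 SD were added to the mean of its lower component. Other values used Python 3.11.15, numpy 2.4.6 and pandas 2.3.3. Of the 101 probes, 95 matched a GENCODE coding transcript of their gene (mm9), and 9 had 2 or more exact genome copies. Genes are named by rule: the 3 highest and lowest values per stage or transition, members with a listed role, values past 1 where 30 or fewer, members with discordant probes, and the extremes of other lists in ES. Further genes named as next in order, for a motif or seed site, or as regulators and stage markers were chosen after their values were seen. Alternatives were offsets of 16 and 0, processed intensity with quantile or 75th percentile scaling, separate normalization of Ago-RNA and total RNA, stricter and no filters, and the median or brightest probe. Normalization was tested on simulated arrays of like signal distribution, with known shifts put into a small part of the probes. That test cannot decide between joint and separate normalization of Ago-RNA and total RNA.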

Additional observations from a re-analysis of the deposited data

Results flagged for a closer look

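In 9 genes E was beyond 0.5 in opposite directions at 2 stages, each read from 1 array pair per stage. None of these differences was tested. In Mrps22 E was 1.3 in ELA and -1.07 in NPC/Neu, in Mrps18b 1.29 in ELA and -0.71 in NPC/Neu, and in Mrpl37 1.25 in NPC and -0.83 in NPC/Neu. Mrps24 had 1.17 in NPC and -0.97 in ES, and Mrpl30 1.08 in ELA and -0.82 in NPC/Neu. Mrpl14 had 0.98 in ELA and -1.57 in NPC/Neu, and Mrpl32 0.62 in ELA and -1.71 in NPC/Neu. Mrpl52 had 0.72 in NPC and -1.36 in ES, and Mrpl1 0.59 in NPC and -0.51 in ES. In each of the 9 the sign at both stages was kept under all 9 alternatives in processing. For those with 1 probe, the filters and the choice of probe could not change a value. Only the alternatives in background correction and normalization could. The limit of 0.5 was lost under an alternative in 4 of them, where the negative E reached -0.07 in Mrpl1 (ES) and, in NPC/Neu, -0.3 in Mrps18b, -0.38 in Mrpl30 and -0.4 in Mrpl37. Mrps18b and Mrpl30 each have 2 probes, and both probes gave E above 1 in ELA.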

How the results depend on the processing

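No paired analysis was possible because each condition had 1 array. Of the summary values under the alternatives, 343 stayed the same, 41 moved and 6 changed sign; all 101 gene values past 1 kept their sign, and 56 stayed past 1 throughout. For detected genes with 1 probe the filters and the choice of probe could not change a value. The cause of the shifts was not tested.

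With the 4 Ago-RNA arrays normalized apart from total RNA, median E from ES to NPC/Neu was -0.52, 0.09, 0.02 and -0.38. It was -0.58, 0.08, 0.02 and -0.38 for large and -0.28, 0.13, 0.06 and -0.36 for small subunit genes. The signs in ELA and NPC turned, while the median of all genes moved to 0.13, 0.14, 0.14 and 0.16, and the members lay -0.65, -0.05, -0.12 and -0.53 from it. Counts at or below -1 were 12 in ES, 0 in NPC and 5 in NPC/Neu (7.49%, 3.98% and 8.67% of all genes), and counts at or above 1 were 7 in ELA and 1 in NPC/Neu (7.52% and 17% of all genes). Scaled to the 75th percentile, median E was -1.11, -0.39, -0.35 and -0.6, with -1.16, -0.41 and -0.59 for large subunit genes in ES, ELA and NPC/Neu and -0.76, -0.39, -0.28 and -0.6 for small. The median of all genes was then -0.34, -0.19, -0.17 and -0.23, with members -0.77, -0.2, -0.17 and -0.37 from it. Genes at or below -1 were 5 in NPC and 14 in NPC/Neu (15.9% and 22.8% of all genes). Median ΔE was 0.91 from ES to ELA, -0.01 from ELA to NPC and -0.26 from NPC to NPC/Neu, where 1 gene was at or below -1, and median Ago-RNA change from ELA to NPC was -0.57. Total RNA changes were -0.27, -0.55 and -0.47, with 4 genes at or below -1 from ELA to NPC and 1 in the last step. That last count was also 1 with offsets of 16 and 0 and with quantile-normalized processed signal, which put 5 genes at or below -1 in NPC. With the brightest probe, small subunit medians were -0.82 in ES and -0.28 in NPC, the large subunit median -0.69 in NPC/Neu, and the Ago-RNA change from ES to ELA 0.7. Apart from Mrpl21, every member had a probe well above background on every array, but dim probes enter the means of some, such as Mrpl39 and Mrpl47.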
